A study of Mus musculus with 16 samples.

Results

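Rag1, Rag2 and Dntt were followed in sorted DN3 thymocytes, the CD4- CD8- CD25+ CD44- stage of T-cell development at which the T-cell receptor β locus is rearranged. These 3 genes were taken by their symbols from 22114 genes in each of 2 count tables. Rag1 encodes the subunit of the V(D)J recombinase that cuts DNA at recombination signals, Rag2 encodes its essential partner, which also binds a methylated lysine of histone H3, and Dntt encodes terminal deoxynucleotidyl transferase, which adds nucleotides without a template at the joins. Both RAG proteins are needed for the cut, the broken ends are then sealed by non-homologous end joining, and the 3 genes are switched on in lymphoid progenitors of the thymus and bone marrow. The RAG genes are turned down once a productive receptor chain has been made and the cell divides.

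Poly-A RNA was sequenced from sorted cells pooled from several mice, all on a C57BL/6 background. In the first experiment, mice carried TetOP-H2B-GFP KI/+, a doxycycline-driven histone label, and the CD2-Lmo2 transgene (Lmo2Tg), and were given doxycycline for 6 weeks followed by 2 weeks of chase. GFPhi DN3 cells had kept the label (3 libraries) and GFPlo DN3 cells had diluted it (3 libraries), so that all 6 libraries of this experiment were Lmo2 transgenic and none came from non-transgenic mice. In the second experiment, total DN3 cells came from 6-week-old wild-type mice (3 libraries), p21-/- mice, which lack a functional Cdkn1a (2 libraries), Lmo2Tg mice (2 libraries) and Lmo2Tg;p21-/- mice (2 libraries). The CD2 promoter drives Lmo2, a LIM-domain adaptor of haematopoietic transcription factor complexes, in T-lineage cells generally and not in DN3 cells alone. Total counts were 26861394 to 31106213 per library in the GFP experiment and 13864936 to 16837667 among the genotypes. At these depths 3 counts, taken as the floor, corresponded to between 0.0964 and 0.112 CPM (counts scaled to library size) in the GFP libraries and between 0.178 and 0.216 CPM among the genotypes, for counting error only. All other CPM values, per-kilobase levels included, are scaled by TMM, a library scaling that sets the bulk of genes equal. The 2 Lmo2Tg libraries carried no usable replicate number and are called a and b. The labels number the libraries of a group as replicates without saying which mice they came from, and p-values measure the spread between these pooled libraries. GFPhi and GFPlo cells came from 3 cohorts of mice, but the labels do not say which libraries share a cohort, and cohort is not a term of the GFP tests.

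Rag2 and Rag1 lie tail to tail on chromosome 2. On GRCm38 (GENCODE M21), Rag2 (ENSMUSG00000032864) spans chr2:101624718-101632529 on the plus strand and Rag1 (ENSMUSG00000061311) spans chr2:101638282-101649501 on the minus strand, 5753 bases apart. Dntt (ENSMUSG00000025014) spans chr19:41029275-41059525 on the plus strand. Their exons cover 6608 bases for Rag1, 3424 for Rag2 and 2292 for Dntt. A further protein-coding gene, B230118H07Rik, covers both RAG genes on the minus strand and shares 80 exonic bases with Rag1, or 1.21% of its exons, on the same strand, and 208 bases with Rag2, or 6.07% of its exons, on the opposite strand. Reads from the bases shared with Rag1 cannot be told apart by strand, and those from the bases shared with Rag2 only where strand was used.

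The promoters are printed because all 3 genes fell together in Lmo2Tg cells and because Lmo2 acts in complexes with E proteins and GATA factors, which read the E-box CANNTG and the GATA motif AGATAA. The 250 bases before each RefSeq start (GRCm38.p6, gene strand, 5′ to 3′) are given, with each motif match on either strand in capitals. Rag1 is at chr2:101649533-101649782 on the minus strand, Rag2 at chr2:101624462-101624711 and Dntt at chr19:41029025-41029274 on the plus strand.
Rag1 promoter: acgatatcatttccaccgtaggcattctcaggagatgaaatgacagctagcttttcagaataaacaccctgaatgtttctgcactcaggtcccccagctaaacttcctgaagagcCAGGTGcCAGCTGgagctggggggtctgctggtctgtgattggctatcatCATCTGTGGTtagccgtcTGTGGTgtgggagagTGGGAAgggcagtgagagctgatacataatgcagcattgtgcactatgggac
Rag2 promoter: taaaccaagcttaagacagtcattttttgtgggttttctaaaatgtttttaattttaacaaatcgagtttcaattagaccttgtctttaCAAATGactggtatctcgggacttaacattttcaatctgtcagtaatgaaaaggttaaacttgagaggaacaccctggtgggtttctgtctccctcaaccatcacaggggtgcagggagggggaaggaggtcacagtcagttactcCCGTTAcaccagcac
Dntt promoter: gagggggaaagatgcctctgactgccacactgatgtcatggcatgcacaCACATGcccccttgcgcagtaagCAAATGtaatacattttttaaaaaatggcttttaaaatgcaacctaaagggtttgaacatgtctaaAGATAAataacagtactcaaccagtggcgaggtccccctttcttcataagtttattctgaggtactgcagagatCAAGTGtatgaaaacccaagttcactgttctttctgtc
The Rag1 window held 3 E-boxes, the first bases of which lay 135, 128 and 85 bases before the start, and the second of these was CAGCTG, the form that is also searched alone. It also held 2 Runx matches (TGTGGT), 81 and 67 bases before the start, the first of which overlaps the third E-box, and 1 Ikaros match (TGGGAA). The Rag2 window held 1 E-box, 161 bases before the start, and 1 Myb match (CCGTTA), 15 bases before it. The Dntt window held 3 E-boxes, 201, 178 and 38 bases before the start, and 1 AGATAA, 112 bases before it. These letters are common: of 32851 RefSeq promoter windows of this length, 66.2% held CANNTG, 13.0% CAGCTG, 14.0% TGTGGT, 21.6% TGGGAA, 9.99% AGATAA and 2.18% CCGTTA. No window of the 3 genes held the forkhead motif GTAAACA, the TCF and LEF motif CTTTGA, the Ets motif CCGGAA or TATAAA, which 3.17%, 13.8%, 12.0% and 12.4% of all windows held. No binding was measured in these samples.

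The labels were checked first. Lmo2 was at 0.204 ± 0.126 CPM (SD, n = 3) in wild-type and 0.183 ± 0.00990 CPM (n = 2) in p21-/- libraries, near the floor, and at 41.4 and 100.4 CPM in the Lmo2Tg and 85.4 and 107 CPM in the Lmo2Tg;p21-/- libraries. All 6 GFP libraries expressed it, 5 of them at between 29.5 and 53.8 CPM and GFPhi replicate 3 at 285 CPM. Cdkn1a was at 41.0 ± 6.93 CPM in wild-type and 29.6 ± 4.60 CPM in Lmo2Tg cells, against 14.3 and 17.7 CPM in p21-/- and 3.93 ± 0.602 CPM in Lmo2Tg;p21-/- cells. The p21-/- libraries were thus lower than wild-type, as labelled, although reads on Cdkn1a remained, and counts per gene do not show which part of the gene they came from. The sort was checked on Il2ra (CD25), which was at 1634 CPM in wild-type and between 1496 and 1588 CPM on average in the other genotypes, with Cd44 at 8.81 CPM in wild-type and up to 14.7 CPM in Lmo2Tg cells and Cd4 at 2.88 CPM in wild-type cells. Cd8a was higher in the transgenic genotypes, at 33.7 CPM in Lmo2Tg against 8.63 CPM in wild-type cells (log2 fold change 1.96, adjusted p = 0.000443, edgeR's quasi-likelihood test). In the GFP libraries Cdkn1a was at 35.8 and 29.9 CPM in GFPhi replicates 1 and 2, at 6.56 CPM in GFPhi replicate 3 and between 8.08 and 12.0 CPM in GFPlo. GFPhi replicate 3 thus lay below every GFPlo library for Cdkn1a, which did not pass over 6 libraries (log2 fold change 1.21, adjusted p = 0.207, edgeR). Without that replicate the value was 1.67 (adjusted p = 0.000624, edgeR). Leaving out the library with low Cdkn1a raises this value by itself, so it is no check of the label. Over all genes, GFPhi replicate 3 differed from replicates 1 and 2 by 115 and 134 in chi-square per degree of freedom against sampling noise. Between replicates 1 and 2 this was 7.6. Since GFPhi replicate 3 stood apart from the other GFP libraries, the tests between GFPhi and GFPlo are given with and without it.

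Per kilobase of exon, Dntt was among the most abundant transcripts of these cells and Rag2 was the least abundant of the 3. In wild-type cells Dntt reached 1134 ± 19.7 CPM per kb (SD, n = 3), rank 18 of 21721 genes with a length, Rag1 188.7 ± 8.85 CPM per kb, rank 153, and Rag2 21.1 ± 3.39 CPM per kb, rank 2530. The same order, Dntt above Rag1 above Rag2, held in all 6 groups. In Lmo2Tg cells Dntt was still rank 30, Rag1 rank 426 and Rag2 rank 7612. Levels are not set against each other between the experiments, since their tables were counted apart: Hmgb1, for example, was at 63.3 and 67.7 CPM in the GFP groups and between 553 and 705 CPM on average in the genotypes.

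The question asked of the genotypes was how the Lmo2 transgene and the loss of p21 alter DN3 cells. With the transgene all 3 recombination genes fell, Rag2 the most and Dntt the least. Rag2 was at 70.1, 62.0 and 84.9 CPM in the wild-type libraries and at 14.4 CPM in both Lmo2Tg libraries. The groups lay far apart, and the Lmo2Tg level was 5.04-fold lower (log2 fold change -2.33 ± 0.20 SE, adjusted p = 1.05e-05 in edgeR's quasi-likelihood test), which was the 122nd lowest log2 fold change of 11840 genes tested. Rag1 was at 1276, 1180 and 1285 CPM in wild-type and 538.3 and 624.8 CPM in Lmo2Tg libraries. It was 2.14-fold lower (log2 fold change -1.10 ± 0.10 SE, adjusted p = 1.89e-05, edgeR). Dntt was at 2642, 2606 and 2552 CPM in wild-type and 1527 and 1443 CPM in Lmo2Tg libraries. It was 1.75-fold lower (log2 fold change -0.81 ± 0.08 SE, adjusted p = 4.24e-05, edgeR). All 3 genes were thus called lower (adjusted p under 0.05), where 16.9% of the genes tested were called lower, 19.7% higher and 36.6% in either direction. With a fold change above 2 asked as well, Rag1 and Rag2 passed and Dntt did not, and 4.70% of genes were lower by that rule. In bulk RNA, fewer cells expressing a gene and less RNA per cell cannot be told apart.

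The fall was also seen on the p21-/- background, measured with libraries other than those of the first comparison. Rag1 was at 1580 and 1396 CPM in the p21-/- and at 642.6 and 732.8 CPM in the Lmo2Tg;p21-/- libraries, 2.16-fold lower (log2 fold change -1.11 ± 0.11 SE, adjusted p = 3.10e-05, edgeR). Rag2 was at 97.3 and 72.9 CPM in p21-/- and 25.4 and 36.5 CPM in Lmo2Tg;p21-/- libraries. Rag2 was 2.74-fold lower (log2 fold change -1.46 ± 0.19 SE, adjusted p = 0.000252, edgeR), less than on the wild-type background, a difference taken up below. Dntt was at 2616 and 2312 CPM in p21-/- and 1652 and 1748 CPM in Lmo2Tg;p21-/- libraries, 1.45-fold lower (log2 fold change -0.54 ± 0.09 SE, adjusted p = 0.00122, edgeR). All 3 were called lower, where 14.4% of the genes tested were called lower, 16.3% higher and 30.7% in either direction.

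**Figure D1:**
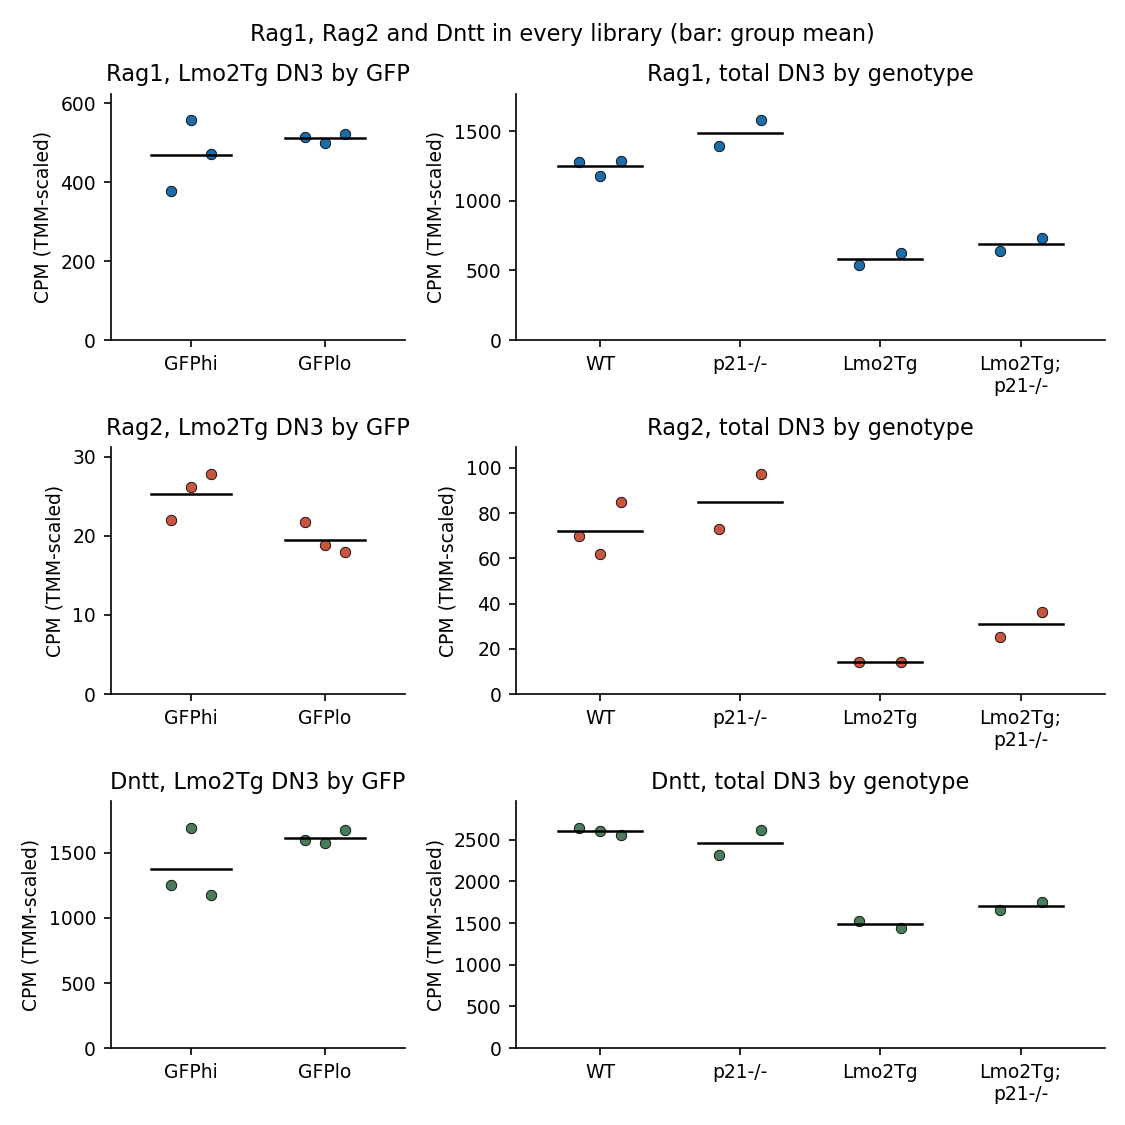
Level of Rag1, Rag2 and Dntt in each library, in TMM-scaled CPM on axes that start at 0; points are libraries and bars are group means. In the genotype experiment every transgenic library lies below every non-transgenic one for the 3 genes, and in the GFP experiment GFPhi replicate 3 (the middle GFPhi point) is the highest of its group for Rag1 and Dntt.

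None of the 3 genes passed the test for loss of p21 alone. Rag1 was at 1488 ± 130 CPM (SD, n = 2) in p21-/- against 1247 ± 58.5 CPM (n = 3) in wild-type cells, a log2 fold change of 0.26 ± 0.10 SE that did not pass (adjusted p = 0.984, edgeR). Rag2 (log2 fold change 0.24 ± 0.17 SE) and Dntt (-0.08 ± 0.08 SE) overlapped between the groups and did not pass. This comparison called 13 genes, or 0.11% of those tested, 391 having an unadjusted p under 0.05, and Cdkn1a was 1 of the 13 (log2 fold change -1.36 ± 0.17 SE, adjusted p = 0.00821, edgeR).

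Within transgenic cells Rag2 was 2.16-fold higher when p21 was missing. The Lmo2Tg;p21-/- libraries were at 25.4 and 36.5 CPM and the Lmo2Tg libraries at 14.4 CPM each (log2 fold change 1.11 ± 0.21 SE, adjusted p = 0.0147, edgeR), where 3.35% of genes were called higher and 6.94% in either direction. The rise kept its direction with each library left out but lost its call without Lmo2Tg library a (adjusted p = 0.0513), without library b (0.0692) or without Lmo2Tg;p21-/- replicate 2 (0.0697). Rag1, at a log2 fold change of 0.24 ± 0.11 SE, and Dntt, at 0.19 ± 0.09 SE, did not pass (adjusted p = 0.188 and 0.201, edgeR). Rag2 in Lmo2Tg;p21-/- cells stayed below every non-transgenic library.

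Whether the transgene acted differently with and without p21 was tested as an interaction. For Rag1 the estimate was -0.01 ± 0.15 on the log2 scale (adjusted p = 0.975, edgeR), the fall being of 2.14-fold on one background and 2.16-fold on the other. For Rag2 it was 0.88 ± 0.27 (adjusted p = 0.132, edgeR) and for Dntt 0.27 ± 0.12 (adjusted p = 0.269, edgeR). Both falls were smaller on the p21-/- background, but the difference between the backgrounds did not pass for either gene. DESeq2, and edgeR without the filter on low counts, called the Rag2 interaction (adjusted p = 0.0293 and 0.0257). Over all genes, DESeq2 called 457 of 11840 and edgeR without that filter 520 of 16028. The main fit, in which Rag2 was not called, called 1.38% of genes. In order of level, Rag1 and Rag2 ran from p21-/- and wild-type down to Lmo2Tg;p21-/- and Lmo2Tg, and Dntt from wild-type and p21-/- down to the same pair. The step between non-transgenic and transgenic cells was called for each gene, the step within non-transgenic cells for none, and the step within transgenic cells for Rag2.

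**Figure D2:**
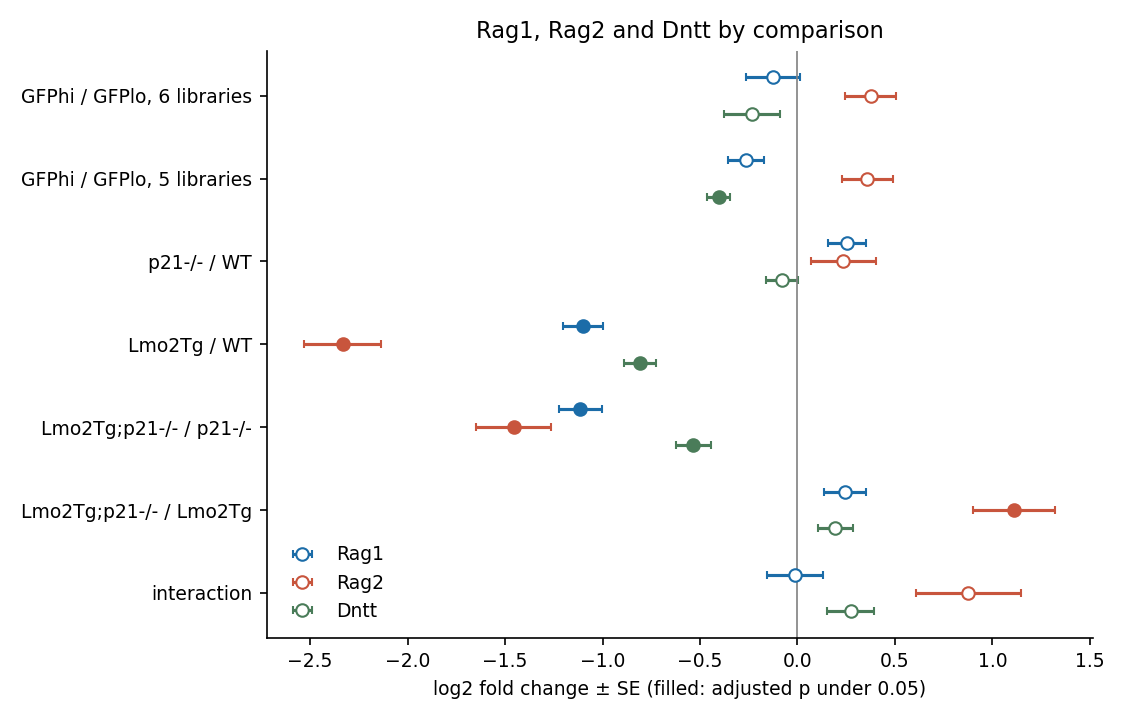
Log2 fold change of Rag1, Rag2 and Dntt in each comparison (x axis) with bars of 1 SE; filled points have an adjusted p under 0.05. All 3 genes are filled and negative in both comparisons of transgenic with non-transgenic cells, with Rag2 at -2.33 and -1.46, and the wide Rag2 bar of the interaction sits at 0.88 unfilled.

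Since Rag1 and Rag2 share a locus and act as a complex, their balance was followed as Rag1 reads per Rag2 read within each library, a ratio that needs no scaling between libraries but is not corrected for length. Wild-type libraries had 18.2, 19.04 and 15.1 Rag1 reads per Rag2 read and p21-/- libraries 16.2 and 19.1. Lmo2Tg libraries had 37.5 and 43.5, the highest of all, and Lmo2Tg;p21-/- libraries had 25.3 and 20.1. The 4 transgenic libraries were all above the 5 non-transgenic ones, by 0.79 on the log2 scale or 1.73-fold (two-sided exact permutation test, p = 0.0159, the smallest this design can give), before and after 1 count was added to both genes. It was also above with each library left out in turn, the difference then being between 0.61 and 0.98. Among transgenic libraries alone, 2 against 2 are too few for such a test to pass. In the GFP experiment the ratio was 17.2, 16.9 and 21.3 in GFPhi and 23.6, 26.5 and 29.1 in GFPlo libraries. GFPhi libraries were lower without overlap, with a difference of -0.52 on the log2 scale (two-sided exact permutation test, p = 0.1, the smallest that 3 against 3 can give), and of -0.62 without GFPhi replicate 3.

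**Figure D3:**
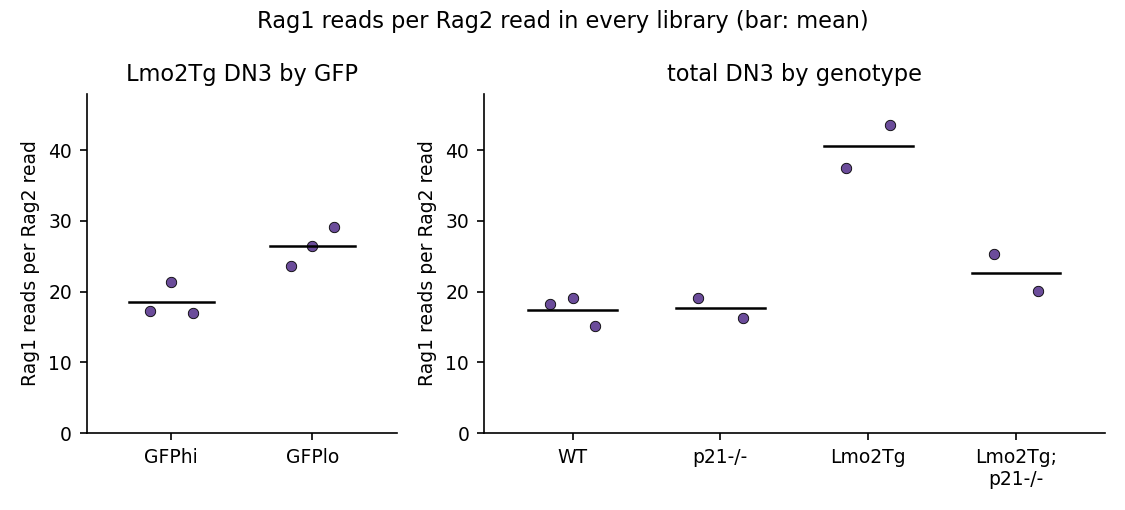
Rag1 reads per Rag2 read in each library, on axes that start at 0; points are libraries and bars are means. Lmo2Tg libraries stand highest, at 37.5 and 43.5, Lmo2Tg;p21-/- libraries lie between them and the non-transgenic ones, and GFPhi libraries lie below GFPlo.

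The GFP experiment asked how label-retaining DN3 cells of transgenic mice differ from those that had diluted the label. The 3 genes did not move together, and none passed over the 6 libraries, where 14.9% of 11581 genes did, 5.37% higher and 9.49% lower in GFPhi. Rag1 was at 377.8, 470.9 and 557.3 CPM in GFPhi and 513.1, 497.9 and 522.7 CPM in GFPlo libraries, with GFPhi replicate 3 above and the other GFPhi libraries below all GFPlo ones (log2 fold change -0.13 ± 0.14 SE, adjusted p = 0.567, edgeR). Dntt was at 1255, 1176 and 1690 CPM in GFPhi and 1597, 1575 and 1673 CPM in GFPlo libraries, split in the same way (log2 fold change -0.23 ± 0.14 SE, adjusted p = 0.303, edgeR). Rag2 was at 21.9, 27.8 and 26.1 CPM in GFPhi and 21.8, 18.8 and 17.9 CPM in GFPlo libraries. The Rag2 estimate was higher in GFPhi but did not pass (log2 fold change 0.38 ± 0.13 SE, adjusted p = 0.104, edgeR).

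Without GFPhi replicate 3, Dntt was called lower in GFPhi cells, by 1.32-fold (log2 fold change -0.40 ± 0.06 SE, adjusted p = 0.00267, edgeR), where 21.7% of 11745 genes were called lower, 19.5% higher and 41.3% in either direction. Rag1 was then at -0.26 ± 0.09 (adjusted p = 0.0614) and Rag2 at 0.36 ± 0.13 (adjusted p = 0.0656, edgeR), and neither passed. Beside these values, chromosome 2 as a whole was lower in GFPhi libraries, with a median log2 fold change of -0.18 over 923 genes tested against 0.015 over all genes, and 63 genes within 10 Mb of Rag1 had a median of -0.29. Without GFPhi replicate 3 these medians were -0.19 over 935 genes, 0.008 over all genes and -0.31 over 64 genes. Set against the chromosome 2 median, Rag1 was at 0.05 and Rag2 at 0.55 over 6 libraries, and at -0.07 and 0.55 over 5, so that the direction of Rag1 turned with that choice over 6 libraries and not over 5. Chromosome 19, which carries Dntt, had a median of 0.11 over 6 libraries and 0.10 over 5. Whether chromosome number takes part in the values of Rag1 and Rag2 was not tested. Among the genotypes the chromosome 2 medians were between -0.006 and 0.013.

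The neighbours of the 3 genes were examined in the comparisons of transgenic with non-transgenic cells and of GFPhi with GFPlo cells. In Lmo2Tg against wild-type cells none of 6 RAG neighbours tested was called lower and 1 was called higher, beside 16.9% and 19.7% of all genes, and the list median was -0.16. The riser was Traf6, a ubiquitin ligase of NF-κB signalling 28928 bases from Rag1, at 166 CPM in Lmo2Tg and 121 ± 8.88 CPM in wild-type cells (log2 fold change 0.46 ± 0.08 SE, adjusted p = 0.00134, edgeR). The overlapping B230118H07Rik was at 6.91 ± 0.773 CPM in Lmo2Tg against 8.16 ± 1.495 CPM in wild-type cells, which overlapped (log2 fold change -0.24 ± 0.18 SE). On the p21-/- background it fell from 8.99 ± 0.358 to 4.75 ± 0.457 CPM (log2 fold change -0.92 ± 0.20 SE, adjusted p = 0.00657, edgeR), as did Ldlrad3 (-1.06 ± 0.20 SE, adjusted p = 0.00266, edgeR), 2 of 6 called lower beside 14.4% of all genes, while Traf6 was at -0.08 ± 0.09. Trim44, Commd9 and the scarcely expressed Prr5l did not pass in either transgene comparison. Around Dntt, Opalin and Tll2 were at or under the floor in every library, Tm9sf3, Zfp518a, Blnk and Pik3ap1 did not pass in either transgene comparison, and Ccnj, a cyclin and the one called of 5 tested, was higher with the transgene (log2 fold change 1.04 ± 0.17 SE, adjusted p = 0.000774, and 0.82 ± 0.19 SE, adjusted p = 0.00685, edgeR). In GFPhi against GFPlo cells over 6 libraries, 1 of 6 RAG neighbours was called lower and 0 of 5 Dntt neighbours were called. Of all genes 9.49% were called lower and 5.37% higher in that fit. The neighbour called was Ldlrad3, at 2.46, 3.52 and 5.40 CPM in GFPhi and 12.1, 15.4 and 20.3 CPM in GFPlo libraries (log2 fold change -2.07, adjusted p = 0.0155, and -2.40, adjusted p = 0.000928 without GFPhi replicate 3, edgeR). Without GFPhi replicate 3, Prr5l (-1.44, adjusted p = 0.0171) and Trim44 (-0.37, adjusted p = 0.00468) were called lower too, so that 3 of the 6 RAG neighbours were lower where 21.7% of all genes were. Near Dntt, Tm9sf3 (0.17, adjusted p = 0.0419) and Ccnj (0.20, adjusted p = 0.0312, edgeR) were then called higher, 2 of 5 where 19.5% of all genes were.

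The genes that act after the cut were followed next. Of 11 end-joining genes, those that hold, trim and ligate the broken ends, none was called higher and 1 lower in Lmo2Tg against wild-type cells, where 36.6% of all genes tested were called, with a list median of 0.002 beside -0.013 over all genes. It was Xrcc5, which encodes Ku80 (log2 fold change -0.37, adjusted p = 0.00523, edgeR). On the p21-/- background, where 30.7% of all genes were called, 1 end-joining gene was called higher and 1 lower, with a median of 0.09 beside -0.004, and Xrcc5 was again the one that fell (-0.34, adjusted p = 0.0131, edgeR). Xrcc6, the Ku70 gene, was the most abundant of the list at 513.6 CPM in wild-type and 563.2 CPM in Lmo2Tg cells and did not pass. Prkdc, Lig4, Dclre1c (Artemis) and Xrcc4 did not pass either. Of 8 genes of the break response, none was called higher, 1 was called lower in Lmo2Tg cells and 2 on the p21-/- background, with medians of -0.08 and -0.12. They were Nbn (-0.27, adjusted p = 0.0384, and -0.49, adjusted p = 0.00370) and, in the latter comparison, H2afx (-0.48, adjusted p = 0.0299, edgeR). Rif1 was the most abundant of these, at 290.9 CPM in wild-type and 300.2 CPM in Lmo2Tg cells.

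Among 4 recombinase cofactors, Skp2, a subunit of the ubiquitin ligase that degrades RAG2 as cells enter S phase, fell in Lmo2Tg cells (log2 fold change -0.90, adjusted p = 0.00128, edgeR), from 63.9 to 34.3 CPM. On the p21-/- background Skp2 did not pass, at 59.6 and 50.5 CPM (-0.24, adjusted p = 0.298, edgeR). Hmgb1, the most abundant, and Hmgb2, which bend DNA at recombination signals, did not pass in Lmo2Tg against wild-type cells and were lower on the p21-/- background (-0.35, adjusted p = 0.0157, and -0.49, adjusted p = 0.0276, edgeR). The list thus had 1 of 4 called lower in the first and 2 of 4 in the second comparison, beside 16.9% and 14.4% of all genes.

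Of 21 transcription factors tied to the recombination genes or to their control, 5 were called higher and 4 lower in Lmo2Tg against wild-type cells, with a median of 0.09, and 4 and 5 on the p21-/- background, with a median of 0.06. These shares stand beside 19.7% higher and 16.9% lower among all genes in the first comparison and 16.3% and 14.4% in the second. The largest changes were rises in Hhex, a homeobox gene of early progenitors, from 3.22 to 78.3 CPM (log2 fold change 4.60, adjusted p = 5.10e-08), in Lyl1, a basic helix-loop-helix factor that binds Lmo2, from 3.75 to 51.4 CPM (3.77, adjusted p = 1.71e-06), and in Id1, an inhibitor of E proteins, from 0.516 to 3.66 CPM (2.81, adjusted p = 0.00335, edgeR). Hhex and Lyl1 rose on the p21-/- background too, by 4.90 and 4.67 on the log2 scale. Id1 did not pass there (0.33), and Id2, another E-protein inhibitor, rose in Lmo2Tg cells and fell in Lmo2Tg;p21-/- cells against p21-/- (1.37, adjusted p = 0.00177, and -0.92, adjusted p = 0.0378, edgeR). The E-protein genes Tcf3 (-0.02 and 0.02) and Tcf12 (0.16 and 0.03), and Runx1, Gata3, Ikzf1, Foxo1 and Ets1, did not pass in either comparison. Satb1, a chromatin organiser, fell in both (-0.47 and -0.58), as did Bcl11b (-0.49 and -0.35). Tcf7, which encodes TCF1, was the most abundant factor at 2653 CPM in wild-type and 2937 CPM in Lmo2Tg cells and did not pass.

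**Figure D4:**
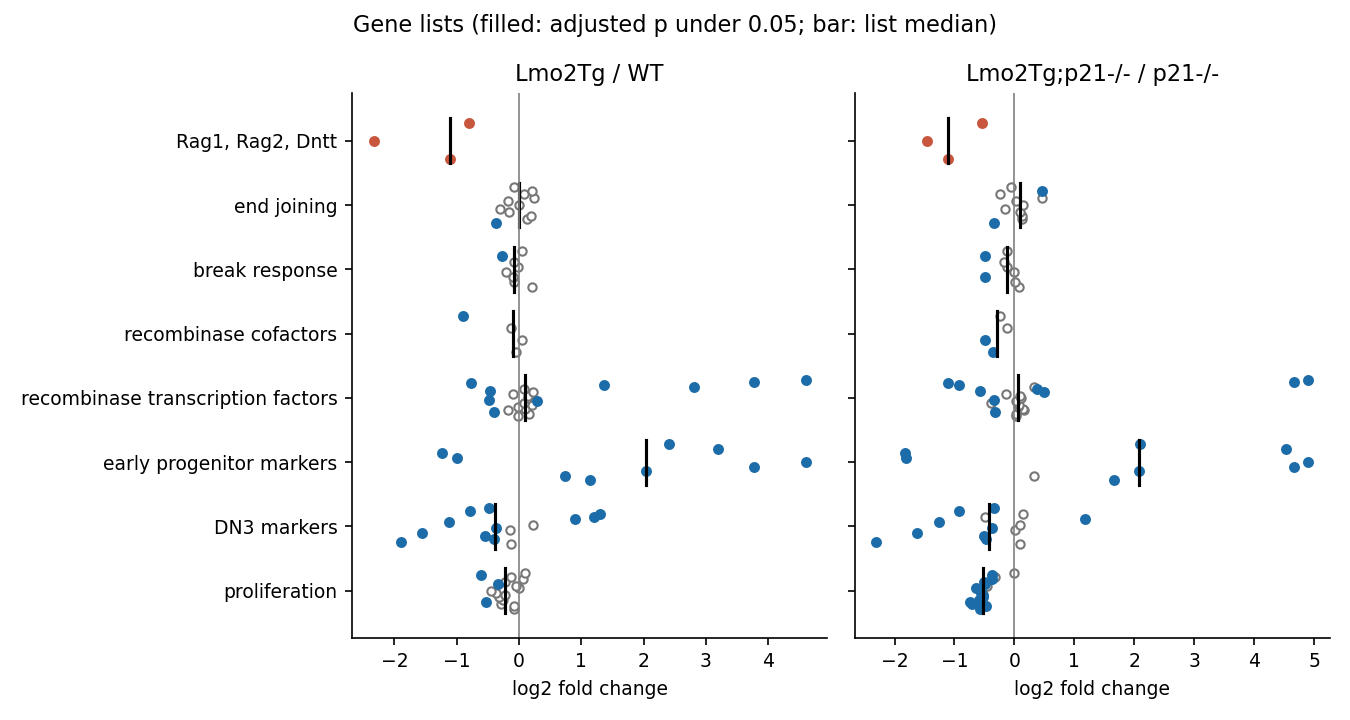
Log2 fold change (x axis) of Rag1, Rag2 and Dntt and of each tested gene (points) of the other lists in Lmo2Tg against wild-type cells (left) and Lmo2Tg;p21-/- against p21-/- cells (right); filled points have an adjusted p under 0.05 and bars are list medians. Rag1, Rag2 and Dntt, in red, lie at -0.54 or lower on both sides, while the median bars of the end-joining genes lie at 0.002 and 0.09.

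The sorted population itself differed between transgenic and other cells in the markers of its stage. Of 14 DN3 markers, 8 were called lower and 3 higher in Lmo2Tg against wild-type cells, and 8 and 1 on the p21-/- background, with medians of -0.39 and -0.42. Over all genes 36.6% were called in the first and 30.7% in the second of these comparisons. The largest fall was in Ptcra, the pre-T-cell receptor α chain, from 152.5 to 40.9 CPM (log2 fold change -1.90, adjusted p = 0.000616, edgeR), followed by Cd3g (-1.56, adjusted p = 1.82e-06) and, as the third largest change, a rise in Nrarp, a Notch target (1.30, adjusted p = 0.00205). Il2ra and Notch1 did not pass. Of 9 early progenitor markers tested, 7 were called higher and 2 lower in Lmo2Tg cells (6 and 2 on the p21-/- background), with a median of 2.05. Summed over the 10 genes of that list, the level was between 103.2 and 133.8 CPM in the 5 non-transgenic libraries and between 286.3 and 494.7 CPM in the 4 transgenic ones, Kit being the most abundant in each of the 9. Flt3, a marker of the earliest thymic progenitors, was near or under the floor in every group. Of 11 markers of later stages, 6 were called higher and 2 lower in Lmo2Tg cells (5 and 3 on the p21-/- background), with Cd2 the largest rise (4.05, adjusted p = 1.31e-07, edgeR) and Ccr9 the largest fall (-3.63, adjusted p = 3.30e-07). Of 17 proliferation genes, 3 were called lower in Lmo2Tg cells and 13 on the p21-/- background, beside 16.9% and 14.4% of all genes, with medians of -0.23 and -0.53. These marker levels moved with the fall of Rag1, Rag2 and Dntt, and their part in it was not tested.

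Between GFPhi and GFPlo cells the same lists were read beside the 14.9% of all genes called over 6 libraries and the 41.3% called without GFPhi replicate 3. Over 6 libraries none of the end-joining, break-response, cofactor or proliferation genes was called by edgeR at an adjusted p under 0.05, and of the transcription factors Satb1 was lower in GFPhi cells (log2 fold change -0.48, adjusted p = 0.0357, and -0.55, adjusted p = 0.00428 without GFPhi replicate 3). Of the stage markers, 1 of 14 DN3 and 1 of 11 later markers were called higher and 1 of 9 early progenitor markers lower. Il2ra was higher (0.68, adjusted p = 0.0294, and 0.52, adjusted p = 0.00189 without that replicate). Kit was lower, at 195.1, 198.3 and 141.4 CPM in GFPhi and 349.1, 381.9 and 340.5 CPM in GFPlo libraries (adjusted p = 0.0101, and 0.000207 without GFPhi replicate 3, edgeR). Without GFPhi replicate 3, end joining had 4 of 11 genes higher and 1 lower, break response 0 and 1 of 8 (Mdc1, -0.38, adjusted p = 0.0116), the cofactors none, the transcription factors 5 and 5 of 21, DN3 markers 4 and 0, early progenitor markers 3 and 2, later markers 6 and 2, and proliferation 0 and 2. Of all genes 19.5% were higher and 21.7% lower in that fit. Mki67, the most abundant proliferation gene, was at 654.5 CPM in GFPhi replicate 3 and at 1051 and 1208 CPM in the other GFPhi libraries, against 949.3, 1261 and 1513 CPM in GFPlo, so that GFPhi replicate 3 alone lay outside the GFPlo range.

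Cells of other lineages were also sought, B-lineage cells first, since their progenitors use the same 3 genes. Of 13 B-lineage markers tested, 7 were called higher and none lower in GFPhi against GFPlo cells (9 of 14 without GFPhi replicate 3), beside 5.37% and 19.5% of all genes called higher. The list's summed level was 78.4, 158.9 and 93.3 CPM in the GFPhi and 56.5, 62.4 and 57.8 CPM in the GFPlo libraries. Cd74, an antigen-presentation gene, was at 13.7, 57.4 and 16.4 CPM in GFPhi replicates 1, 2 and 3 and at most 0.419 CPM in GFPlo libraries, and was the most abundant marker in GFPhi replicate 2. The list median was a log2 fold change of 3.10, and 3.435 without GFPhi replicate 3. Of genes of B-cell progenitors, Vpreb1 was at no more than 1.16 and Igll1 at no more than 0.419 CPM in any GFP library. These 2 were named after their values were seen and do not stand for the list. The libraries came from cells sorted as CD4- CD8- CD25+ CD44- thymocytes, and the part of B-lineage cells in the GFPhi levels of the recombination genes was not tested. Among the genotypes none of 10 B-lineage markers tested was called higher with the transgene and 3 were called lower in both comparisons, beside 16.9% and 14.4% of all genes, namely Spib, Blk and Cd79b (between 26.3 and 45.95 CPM on average in wild-type libraries). Of 8 thymic epithelial genes only Epcam, which thymocytes share, and Ccl25 were tested, Epcam being lower with the transgene (-1.46 and -1.61) and higher in GFPhi cells (1.59, adjusted p = 0.0227, and 1.29, adjusted p = 0.00368 without GFPhi replicate 3, edgeR). Myeloid lists summed to 7.39 to 11.4 CPM in the GFP and 15.6 to 34.7 CPM in the genotype libraries, and the Lmo2Tg sums of 19.67 and 19.97 CPM lay within the wild-type range of 15.61 to 22.01 CPM. On the p21-/- background the sums were 25.34 and 34.72 CPM in Lmo2Tg;p21-/- and 24.97 and 29.43 CPM in p21-/- libraries. Of 7 myeloid markers tested, 2 were called higher and 1 lower in Lmo2Tg cells (3 and 0 on the p21-/- background), with medians of -0.02 and 1.30. Mpo rose from 0.209 to 7.80 CPM in Lmo2Tg cells (log2 fold change 5.19, adjusted p = 0.000122) and Itgam from 1.59 to 5.16 CPM (1.69, adjusted p = 0.00111), while Lyz2, the most abundant in every non-transgenic library, fell from 15.8 to 5.96 CPM (-1.40, adjusted p = 0.000105, edgeR). Erythroid genes summed to at most 34.6 CPM in any library, a p21-/- one. The sums were 9.91 and 15.04 CPM in Lmo2Tg and 3.37, 6.55 and 2.30 CPM in wild-type libraries. On the p21-/- background they were 11.92 and 16.30 CPM with the transgene and 6.27 and 34.56 CPM without it. Of 6 erythroid genes tested, 1 was called higher and 0 lower in Lmo2Tg cells and 0 were called on the p21-/- background, with medians of 1.245 and -0.677. Of 5 plasmacytoid and dendritic markers tested in the genotypes, 1 was called higher and 3 lower in Lmo2Tg cells and 0 and 3 on the p21-/- background, Bst2 being the most abundant in transgenic and Ccr9 in non-transgenic libraries. Of 5 NK and innate lymphoid markers, 2 were called higher in Lmo2Tg cells, Id2 and Zbtb16, and 1 higher and 1 lower on the p21-/- background, Nkg7 and Id2, with Gata3 the most abundant in every genotype library. Over all genes 19.7% were called higher and 16.9% lower in the first and 16.3% and 14.4% in the second of these comparisons. In GFPhi against GFPlo cells 1 of 4 plasmacytoid and dendritic markers, Cd74, and 1 of 4 NK and innate lymphoid markers, Nkg7 (179.1 against 100.5 CPM on average, log2 fold change 0.83, adjusted p = 0.00750, and 0.84, adjusted p = 0.00158 without GFPhi replicate 3, edgeR), were called higher, beside 5.37% of all genes. Neither of these lists had a gene called lower, and 0 of 2 myeloid markers tested were called. Without GFPhi replicate 3, 1 of 5 plasmacytoid and dendritic markers was called higher and 2 lower. Of 4 myeloid markers 1 was then higher and 1 lower, and of 4 NK and innate lymphoid markers 1 was higher. Of all genes 19.5% were higher and 21.7% lower in that fit.

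The genes whose levels followed each member most closely over the 9 genotype libraries were found among 8762 others with at least 10 CPM on average, by Pearson's r of log2 CPM. These libraries fall into 4 transgenic and 5 non-transgenic ones, a step that all these genes share, so no p is given. The 5 closest to Rag1 were Mbtps1 (r = 0.989), Klhdc10, Evi5, Serinc5 and Hsdl1 (0.983). To Rag2 they were Zc3hav1l (0.992), BC055324, Cyb5b, Alcam and Rpp14 (0.985), and to Dntt they were Lzts2 (0.991), Mtmr4, Dhrs3, Tbc1d16 and Lss (0.988). Between the members r was 0.966 for Rag1 and Rag2, 0.953 for Rag1 and Dntt and 0.958 for Rag2 and Dntt. Over the 6 GFP libraries, GFPhi replicate 3 among them, these values were -0.019, 0.768 and -0.487. Of the genes named, r in the GFP libraries was from -0.115 to 0.821 with Rag1, from -0.807 (Zc3hav1l) to 0.316 (Alcam) with Rag2 and from -0.535 to 0.75 with Dntt. No r is given over the 5 libraries left without GFPhi replicate 3, which are too few.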

How the data were processed

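Poly-A RNA-seq of pooled DN3 cells was analysed for 6 GFP and 9 genotype libraries. The authors deposited raw whole-number counts per gene, in a table for each experiment. The submitters' processing notes name mm10, STAR 2.4.2a, featureCounts and limma, without roles. Whether strand was used is not stated in the sources used here, but the name of the GFP table hints at reverse-strand counting and that of the genotype table at counting without strand. The authors did not normalize these counts. Of 10 genotype samples in the labels, 9 have a column that was used, and p21-/- replicate 3 was not analysed here. A column named like replicate 3 of Lmo2Tg;p21-/- matches no label and was not used (1 column in all), and whether its name is right is not known. The Lmo2Tg columns were assigned as a group only. Positions came from GENCODE M21, which matched 98.2% of 22114 genes.

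Counts were filtered (filterByExpr, minimum count 10, minimum total count 15), scaled by TMM and tested across all genes with the quasi-likelihood test of edgeR 4.0.16 (R 4.3.3), separately for each table, the 9 genotype libraries sharing 1 estimate of the spread. A gene was called at a Benjamini-Hochberg adjusted p under 0.05. The test was tested on simulated data. CPM are TMM-scaled, and likeness used log2 CPM with a prior count of 2. Ratios were tested by exact permutation (scipy 1.17.1). Figures used matplotlib 3.10.9.

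The members, lists and tests were chosen with earlier results of these data known. The rule named Rag1, Rag2, Dntt, Lmo2, Cdkn1a and the neighbours of the loci, and, in each other list, the most abundant member and up to 3 called members with the largest change at 1 CPM or more on average; any other gene was named after its values were seen. Alternatives were DESeq2 1.42.0, limma-voom 3.58.1, RLE size factors, other filters, the replicate block and fewer libraries. Further ones were scaling without chromosomes 2 and 15, centring on the chromosome 2 median, and each library left out. Replicate pairs differed by more than sampling noise (chi-square per degree of freedom from 2.64 to 134). No source used here says that equal replicate numbers mark a shared cohort, and same-numbered libraries did not all deviate together, so the tests had no block. Some members of the gene lists that passed a test are counted but not reported by name here.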

Additional observations from a re-analysis of the deposited data

Results flagged for a closer look

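The change of Cdkn1a with the transgene differed between the p21 backgrounds, by the interaction test (-1.56 ± 0.27 on the log2 scale, adjusted p = 0.0319, edgeR's quasi-likelihood test). Cdkn1a was 1.39-fold lower in Lmo2Tg than in wild-type cells and 4.09-fold lower in Lmo2Tg;p21-/- than in p21-/- cells, in which the gene is targeted and its remaining reads are of unknown position. Over 14 alternatives, chosen after seeing the data, the adjusted p ran from 2.00e-05 to 0.130. The call was kept in 6 and lost in 8, namely with limma-voom and the leaving out of either Lmo2Tg;p21-/- library, Lmo2Tg library a, p21-/- replicate 2 or any wild-type library, while the estimate stayed between -1.73 and -1.39 with each library left out.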

How the results depend on the processing

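The falls of Rag1, Rag2 and Dntt with the transgene kept their direction and their call on both backgrounds in all 11 alternatives each. Of 217 values of the members under alternatives, 202 kept direction and call. With each library left out, the 6 falls had log2 fold changes from -1.21 to -0.99, -2.43 to -2.20 and -0.85 to -0.77 (Lmo2Tg against wild-type) and from -1.22 to -1.02, -1.75 to -1.23 and -0.62 to -0.44 (p21-/- background) for Rag1, Rag2 and Dntt.

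Rag1 in GFPhi against GFPlo turned to 0.052 when set against the chromosome 2 median and ran from -0.26 to 0.016 with each library left out. Rag2 moved to 0.55 against that median, over 6 libraries and, an alternative chosen after seeing the data, over 5. Dntt ran from -0.40 to -0.13 and was called without GFPhi replicate 3 only. For p21-/- against wild-type, Dntt ran from -0.18 to 0.0083 and Rag2 from 0.0058, without p21-/- replicate 1, to 0.43, without replicate 2. Rag2 in Lmo2Tg;p21-/- against Lmo2Tg cells ran from 0.81 to 1.33, with the call lost without 3 of the 4 libraries in turn. In the interaction Rag1 ran from -0.12 to 0.10 and Rag2 from 0.58 to 1.10, and Rag2 was called at 0.86 by DESeq2 and 0.89 without the filter. The cause of these differences was not tested.

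Counts of called genes moved more than the members. GFPhi against GFPlo gave 261 calls where a change of more than 2-fold at an adjusted p under 0.01 was asked, 2913 by DESeq2 and 273 to 4848 with each library left out, 4848 being without GFPhi replicate 3 and 273 without GFPlo replicate 2, beside 1721. p21-/- against wild-type gave 20 by DESeq2, 21 without the filter and 8 to 18 with each library left out, beside 13. Where more than 2-fold was asked, the counts were 1420 (Lmo2Tg against wild-type), 1230 (Lmo2Tg;p21-/- against p21-/-), 222 (against Lmo2Tg) and 95 (interaction). With no fold asked, these 4 comparisons gave 4329, 3639, 822 and 163 calls, and 2815 to 3836, 1914 to 3179, 60 to 514 and 0 to 449 with each library left out, and the interaction had 0 calls by edgeR without Lmo2Tg;p21-/- replicate 1, wild-type replicate 1 or wild-type replicate 3, with 1367, 1823 and 2346 unadjusted p under 0.05. The interaction gave 457 calls by DESeq2 and 520 without the filter. Lmo2Tg;p21-/- against Lmo2Tg gave 404 in a fit of those 4 libraries alone.

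Equal replicate numbers did not in every pair mark libraries that deviate together: deviations of same-numbered GFPhi and GFPlo libraries correlated at 0.157, -0.104 and 0.037, those of p21-/- and wild-type at -0.378 and 0.399, and those of Lmo2Tg;p21-/- and p21-/- at 0.125 each. A fit with the replicate number as a block gave 496 calls for GFPhi against GFPlo and 34 for p21-/- against wild-type, and changed no call of the members. The labels number the Lmo2Tg samples, but the names of their columns also describe GFPlo samples and were matched to the group only, so comparisons with them had no such fit. Of the members Rag2 had the fewest reads, 194 and 210 in the Lmo2Tg libraries, which limits the precision of its values.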
